A study of Mus musculus with 94 samples.

Results

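Reads on 10 individual L1 elements of mouse chromosomes 16 and 17 (MMU16 and MMU17) were examined in cortex and hippocampus, out of 430083 L1 elements counted in the series. The 10 elements were chosen by measured values: the study's lists, made from these same libraries, give them as higher in trisomic mice and place them on MMU16 or MMU17. That list holds 13 such elements, and the other 3 lie close together on MMU17 and are given only where they bear on a result. L1_Mm_dup4871 and L1Md_F2_dup59906 were listed in both tissues, with and without treatment. L1ME3Cz_dup944, L1MC1_dup5016, L1M2_dup16808, L1MEc_dup4826 and Lx4A_dup9528 were listed only for treated trisomic against non-treated wild-type cortex. L1Md_F_dup3732, L1Md_F2_dup57795 and L1Md_A_dup15761 were listed only for the same comparison in hippocampus. A difference in a comparison that put an element on the list is therefore a description here. Tests were run on the other tissue or on libraries that the listing did not use. For an element listed in a single tissue, the unused libraries of that tissue were from non-treated trisomic and treated wild-type mice. Genotype cannot be told apart from treatment in that comparison.

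The mice were male Ts65Dn (trisomic, TS) animals and their wild-type (WT) littermates, 3 to 4 months old, bred from Ts65Dn females and B6C3F1/OlaHsd hybrid males. They received lamivudine at 3 mg/kg in the drinking water (-t) for 4 months or water alone (-nt). Total RNA of 94 samples was sequenced after removal of ribosomal RNA: 9 cortex and 8 hippocampus libraries were WT-nt, 9 and 8 were TS-nt, 17 of each tissue were WT-t, 13 of each were TS-t, and 46 of the 48 mice gave both tissues. The methods mention pooling in groups of 3 per condition before RNA was measured, so it is unclear whether a library is 1 mouse, and the spread given here is that between libraries.

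L1 elements are retrotransposons that copy themselves through an RNA, using an endonuclease and reverse transcriptase that they encode. Most genomic copies are truncated and immobile, and many lie inside introns and exons, where the transcript of the host gene also yields reads on the L1. L1Md_A, L1Md_F and L1Md_F2 are mouse subfamilies, Lx elements are older rodent copies, and L1M elements are the oldest, shared among mammals. Ts65Dn mice carry a small extra chromosome with the distal part of MMU16 and the part of MMU17 next to its centromere. Lamivudine is a nucleoside analogue that blocks reverse transcriptases. A sequence with 3 copies in TS and 2 in WT would show a ratio of 1.5 (0.585 on the log2 scale) if its RNA followed copy number.

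Positions are those of the study's list, in GRCm38/mm10, and the gene annotation is GENCODE vM21. Taking the extra segments as MMU16 from Mrpl39 (16:84717576-84735742) to the end and MMU17 from the centromere through Pde10a (17:8525372-8986648), 7 of the 10 elements lie inside them. L1Md_F2_dup59906 (17:3111781-3112547, minus strand, 767 bases) lies almost whole in a Gm21926 exon of its own strand, where Gm21926 is annotated as a transcribed processed pseudogene. L1ME3Cz_dup944 (16:94395910-94396630, plus strand, 721 bases) lies in exons of Ttc3, a ubiquitin ligase gene, on the same strand. L1MC1_dup5016 (16:94750285-94751881, plus strand, 1597 bases) lies in an intron of Kcnj6, a potassium channel gene of the opposite strand, and of the antisense gene Gm41505. The bodies of L1M2_dup16808 (16:96768588-96769116, plus strand, 529 bases), Lx4A_dup9528 (16:96959216-96960091, plus strand, 876 bases) and L1MEc_dup4826 (16:97049594-97050007, minus strand, 414 bases) all fall in introns of Dscam, a neuronal cell adhesion gene of the minus strand, and L1M2_dup16808 also overlaps an exon of AC154538.1 on its own strand. L1Md_F_dup3732 (16:98015457-98016275, minus strand, 819 bases) overlaps exons of B230307C23Rik on the opposite strand and lies within A630089N07Rik on the same strand.

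The other 3 elements lie outside both segments. L1_Mm_dup4871 (16:31386704-31387928, minus strand, 1225 bases) is intergenic, 7571 bases from the nearest gene, 1700007E05Rik. L1Md_F2_dup57795 (16:16429210-16435351, minus strand, 6142 bases), the only near full-length copy and the only member that the list marks with a reverse transcriptase domain, lies in an intron of Fgd4 on the same strand. L1Md_A_dup15761 (17:33313153-33315127, plus strand, 1975 bases) is intergenic, 5912 bases from Zfp955b. The strand setting used in counting is not given in the sources used here, so reads of an L1 and of a gene overlapping it cannot be told apart.

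Sequence was read where a member falls in an annotated transcript, and stretches of the members in Ttc3 and B230307C23Rik, which are protein-coding genes, are not printed. It is shown for L1Md_F2_dup59906, a member listed in both tissues, and for L1M2_dup16808, because the first shares stretches with transcripts of other genes and the second does not. The first run is 17:3112248-3112547, minus strand, 300 bases of the 758 that lie in the Gm21926 transcript, and the second is 16:96768683-96768840, plus strand, 158 bases in the AC154538.1 transcript, both 5′ to 3′ on the strand of the element. Capitals mark bases within a 50-base window that also occurs, on either strand, in a GENCODE transcript of another gene.
L1Md_F2_dup59906: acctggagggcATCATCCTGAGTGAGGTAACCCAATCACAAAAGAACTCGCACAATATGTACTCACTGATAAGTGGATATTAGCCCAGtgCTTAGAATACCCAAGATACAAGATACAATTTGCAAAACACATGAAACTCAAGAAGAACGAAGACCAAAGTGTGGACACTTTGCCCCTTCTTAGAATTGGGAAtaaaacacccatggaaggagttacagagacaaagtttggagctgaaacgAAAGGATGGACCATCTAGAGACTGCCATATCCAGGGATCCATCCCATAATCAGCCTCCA
L1M2_dup16808: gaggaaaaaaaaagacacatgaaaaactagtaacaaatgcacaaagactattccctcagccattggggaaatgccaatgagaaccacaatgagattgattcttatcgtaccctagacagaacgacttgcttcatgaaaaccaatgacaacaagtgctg
Of the 709 windows in the 758 bases of L1Md_F2_dup59906, 137 (19.3%) occurred in transcripts of 41 other genes. None of the 109 windows of the L1M2_dup16808 stretch did. The search covered transcripts only, not the genome.

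Counts per library on all L1 elements ranged from 186545 to 1165192 for cortex, and hippocampus libraries held 178454 to 403378. A filter on low counts left 5416 elements for testing in cortex and 4238 in hippocampus, and 7 of the 10 members passed it in both tissues. L1M2_dup16808, L1MEc_dup4826 and Lx4A_dup9528 did not pass in either. In cortex 8 of 48 libraries (5 WT, of which 4 WT-t, and 3 TS, of which 2 TS-t) stood apart on the first principal component, by over 3 median absolute deviations, and the main cortex ratios are given with and without them. Comparisons between the tissues used all libraries. The animal labels begin with 18, 19 or 20. All non-treated mice, but only 3 of 17 WT-t and 8 of 13 TS-t mice, have labels beginning with 20. What the beginning means is not stated, and over all mice it cannot be told apart from treatment. In TS-nt vs. WT-t, treatment and most label beginnings differ along with genotype.

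Levels are CPM, TMM-normalised with the counts on tested elements as library size. Per kilobase of element, mean WT levels in cortex were highest for L1Md_F2_dup59906 (1520 CPM per kb) and L1_Mm_dup4871 (1450 CPM per kb), whose spreads overlapped. They were followed by L1Md_F_dup3732 (445), L1ME3Cz_dup944 (271), L1MC1_dup5016 (202) and L1Md_A_dup15761 (63.7 CPM per kb). L1MEc_dup4826 (20.2), L1Md_F2_dup57795 (11.2), L1M2_dup16808 (10.3) and Lx4A_dup9528 (6.54 CPM per kb) had the lowest levels. In hippocampus the first 6 places were held in the same order, from 1770 CPM per kb for L1Md_F2_dup59906 to 40.6 for L1Md_A_dup15761. L1_Mm_dup4871 ranked 1 by its counts among 3126 L1_Mm copies and held a median of 26.3% of their counts in cortex and 23.8% in hippocampus. L1Md_F_dup3732 ranked 1 among 2105 L1Md_F copies, with 8.32% and 8.01%. L1Md_F2_dup59906 ranked 4 among 44955 L1Md_F2 copies in both tissues, with 1.16% and 1.41%, and the near full-length L1Md_F2_dup57795 of the same subfamily ranked 186 in cortex and 103 in hippocampus.

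**Figure D1:**
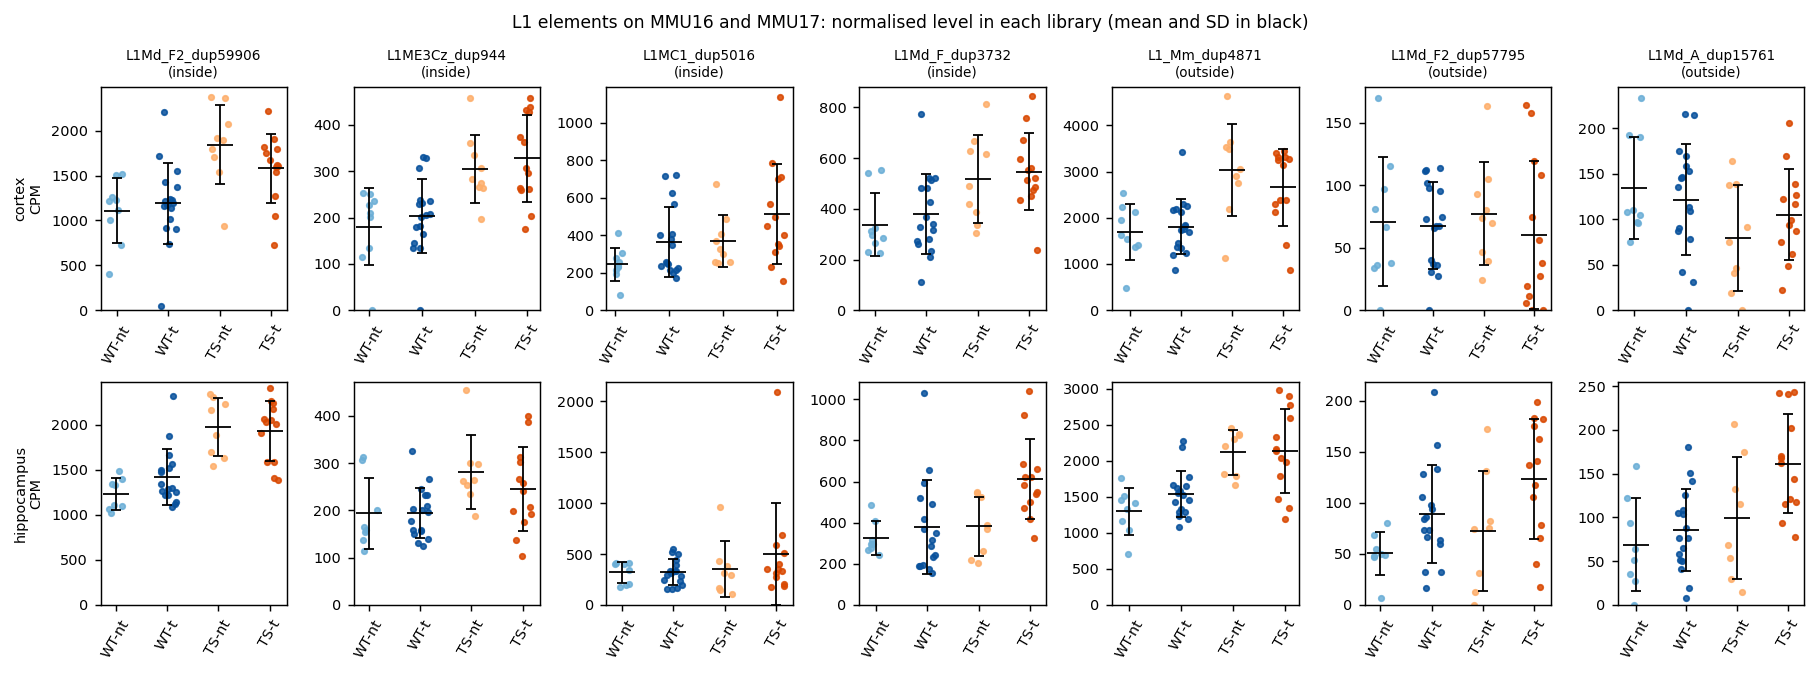
Normalised level (CPM, vertical axis from 0) of the 7 tested elements in each cortex library (top) and hippocampus library (bottom), by group, with the mean and SD in black; inside and outside refer to the extra MMU16 and MMU17 segments. L1Md_F2_dup59906 and L1_Mm_dup4871 were higher in both TS groups in both tissues, whereas in cortex the TS means of L1Md_F2_dup57795 and L1Md_A_dup15761 were 67.2 and 94.6 CPM against WT means of 68.9 and 126 CPM.

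The members listed in both tissues had averaged TS over WT ratios between 1.48 and 1.62. L1Md_F2_dup59906 had a lowest, median and highest level in cortex of 402, 1219 and 1513 CPM in WT-nt, 46.4, 1194 and 2204 CPM in WT-t, 939, 1902 and 2373 CPM in TS-nt, and 727, 1623 and 2222 CPM in TS-t. In hippocampus these were 1021, 1220 and 1489 CPM in WT-nt, 1084, 1299 and 2317 CPM in WT-t, 1543, 2028 and 2336 CPM in TS-nt, and 1383, 2025 and 2409 CPM in TS-t. The genotypes overlapped in cortex, while in hippocampus every TS-nt library lay above every WT-nt library, and WT-t overlapped both. In hippocampus 21 of 21 TS libraries lay above the WT median. TS-nt vs. WT-nt is a comparison that put the element on the list, and the share of all elements separated this way was not counted. The TS over WT ratio, averaged over treatments, was 1.49 in cortex (95% interval 1.17 to 1.89) and 1.48 in hippocampus (1.30 to 1.68), and the listing used libraries of both.

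L1_Mm_dup4871 lies on MMU16 before Mrpl39, outside the extra segments, and its ratios also had intervals that include 1.5. Its lowest, median and highest levels in cortex were 479.8, 1632 and 2536 CPM in WT-nt, 871, 1750 and 3414 CPM in WT-t, 1134, 3055 and 4623 CPM in TS-nt, and 867, 3148 and 3435 CPM in TS-t. In hippocampus they were 703, 1377 and 1757 CPM in WT-nt, 1083, 1530 and 2271 CPM in WT-t, 1659, 2251 and 2458 CPM in TS-nt, and 1191, 2144 and 2987 CPM in TS-t. All groups overlapped, and 19 of 22 TS libraries in cortex and 19 of 21 in hippocampus lay above the WT median. The averaged ratio was 1.62 in cortex (1.30 to 2.02) and 1.5 in hippocampus (1.30 to 1.73). The WT-t libraries were not part of the listing: TS-nt over WT-t was 1.68 in cortex (1.25 to 2.25) and 1.38 in hippocampus (1.14 to 1.67) for L1_Mm_dup4871, and 1.55 (1.12 to 2.14) and 1.39 (1.17 to 1.66) for L1Md_F2_dup59906, with TS-nt libraries that the listing did use. Without the cortex libraries that stood apart, TS-nt over WT-t was 1.63 for L1_Mm_dup4871 and 1.38 for L1Md_F2_dup59906, and the averaged ratios in cortex were 1.57 and 1.36.

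Calls were made at an adjusted p-value below 0.1 with edgeR's quasi-likelihood test over all tested elements. In cortex 0 members were called in any of the 8 comparisons, where the background was 0 of 5416 elements (0%). In hippocampus both members listed in all comparisons were called in TS-nt vs. WT-nt (background 0.0708% of 4238 elements), in TS-t vs. WT-nt (0.0472%) and in the averaged genotype comparison (0.0944%), whose libraries the listing used in whole or in part. In TS-t vs. WT-nt, L1Md_F_dup3732 was called as well with DESeq2, and in a fit of only the groups compared L1Md_F_dup3732 and L1Md_F2_dup59906 were called and L1_Mm_dup4871 was not (adjusted p = 0.145). L1Md_F_dup3732 was listed on this same comparison. All these calls are a description and no support for the listing, which used the same libraries. None was called in TS-nt vs. WT-t (0.0236%) or in the other 4 hippocampus comparisons (0%). Over all elements tested, the median log2 change of the averaged genotype comparison was 0.0764 in cortex and -0.0146 in hippocampus.

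**Figure D2:**
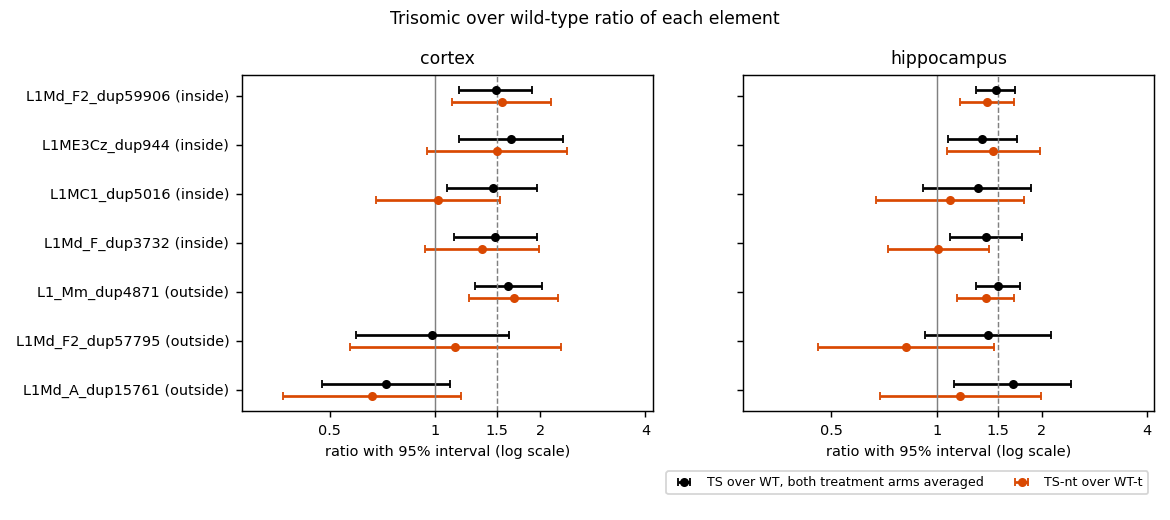
Ratio of TS over WT (horizontal log axis) with its 95% interval for each tested element in cortex (left) and hippocampus (right), for the average over treatment arms (black) and for TS-nt over WT-t (orange), with lines at ratios of 1 and 1.5. The 4 inside elements lay between 1.31 and 1.65 for the average in both tissues, which includes libraries that the listing used. For TS-nt over WT-t, in which treatment also differs, they ran from 1.01 to 1.55. Of the outside elements, L1_Mm_dup4871 averaged 1.62 in cortex and 1.5 in hippocampus, L1Md_F2_dup57795 0.983 and 1.4, and L1Md_A_dup15761 0.722 and 1.65.

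The inside elements listed in a single tissue were next compared in the tissue that the listing did not use. By their labels, its TS-t and WT-nt mice were largely those of the listing, so these tests are not independent of it. L1Md_F_dup3732, listed in hippocampus, had a lowest, median and highest level in cortex of 225, 297 and 554 CPM in WT-nt, 112, 339 and 775 CPM in WT-t, 303, 492 and 814 CPM in TS-nt, and 239, 520.2 and 845 CPM in TS-t. The genotypes overlapped, with 20 of 22 TS libraries above the WT median. Mean levels were 518 ± 173 CPM in TS-nt against 338 ± 124 CPM in WT-nt (SD, n = 9 and 9, two-sided exact permutation test, p = 0.0231). In treated mice they were 546 ± 152 CPM in TS-t against 379 ± 159 CPM in WT-t (n = 13 and 17, two-sided permutation test, p = 0.00699). With treated mice limited to labels beginning with 20, TS-t over WT-t was 1.42 (n = 8 and 3, exact permutation test, p = 0.0545). Without the 8 cortex libraries that stood apart the p-values were 0.0444 (exact permutation test) and 0.027 (permutation test). The averaged ratio was 1.48 (1.13 to 1.96, edgeR p = 0.00537, adjusted over all elements p = 0.998).

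L1ME3Cz_dup944 in Ttc3, listed in cortex, had in hippocampus 113, 161 and 314 CPM in WT-nt, 126, 196 and 325 CPM in WT-t, 188, 263 and 455 CPM in TS-nt, and 104, 242 and 399.8 CPM in TS-t, as lowest, median and highest levels. The genotypes overlapped, with 18 of 21 TS libraries above the WT median. Mean levels in non-treated mice were 282 ± 78.6 CPM in TS-nt against 194 ± 75.8 CPM in WT-nt (n = 8 and 8, two-sided exact permutation test, p = 0.0342), and in treated mice 245 ± 89.1 CPM in TS-t against 195 ± 53.6 CPM in WT-t (n = 13 and 17, permutation test, p = 0.0643). The averaged ratio was 1.35 (1.08 to 1.70, edgeR p = 0.00992, adjusted p = 0.721). In cortex, with libraries that the listing did not use, the mean was 305 ± 73.8 CPM in TS-nt against 203 ± 80.1 CPM in WT-t (n = 9 and 17, exact permutation test, p = 0.00309), and p = 0.00285 by the exact permutation test without the libraries that stood apart. On the log2 scale the exact permutation test gave p = 0.0761, and edgeR gave p = 0.083 (adjusted p = 1), where 1 WT-t library held 0 reads. Against only the 3 WT-t mice with labels beginning with 20 the ratio was 1.03 (n = 9 and 3, exact permutation test, p = 0.873).

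L1MC1_dup5016 in Kcnj6 had wider spreads. Its hippocampus levels had a lowest, median and highest value of 178, 371 and 414 CPM in WT-nt, 155, 311 and 549 CPM in WT-t, 109.6, 302 and 963 CPM in TS-nt, and 179, 349 and 2088 CPM in TS-t, so all groups overlapped and single TS libraries reached the highest values. The averaged ratio in hippocampus was 1.31 (0.916 to 1.86, edgeR p = 0.137, adjusted p = 0.999), an interval that holds both 1 and 1.5. In treated mice it was 1.55 (TS-t over WT-t, 1.02 to 2.36, edgeR p = 0.0385, adjusted p = 1), and in non-treated mice 1.10 (0.619 to 1.95). The permutation test of the treated groups did not pass 0.05, at 497.8 ± 501 CPM in TS-t against 320.2 ± 126 CPM in WT-t (n = 13 and 17, p = 0.128, p = 0.19 on the log2 scale and p = 0.246 without TMM). The highest TS-t library, at 2088 CPM, was followed by one at 688 CPM. In cortex TS-nt over WT-t was 1.02 (0.676 to 1.53, edgeR p = 0.937, adjusted p = 1), and 0.946 without the libraries that stood apart. The WT-t mean in cortex, 363 ± 185 CPM, was also the larger WT mean, against 245 ± 89.0 CPM in WT-nt, the lower group of its listing.

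The unused comparison of L1Md_F_dup3732 in its own tissue gave another value: TS-nt over WT-t in hippocampus was 1.01 (0.727 to 1.41, edgeR p = 0.936, adjusted p = 1), an interval that ends below 1.5. Its hippocampus levels were highest in TS-t (lowest, median and highest 325, 583 and 1042 CPM), the group on which it was listed, against 202, 379.6 and 548 CPM in TS-nt and 156, 314 and 1032 CPM in WT-t.

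The remaining outside elements had averaged TS over WT ratios below 1 in cortex, with intervals that include 1 over all libraries. L1Md_A_dup15761, listed in hippocampus, had a lowest, median and highest level in cortex of 74.7, 108 and 234 CPM in WT-nt, 0, 136 and 216 CPM in WT-t, 0, 74.8 and 164 CPM in TS-nt, and 22.6, 98.9 and 206 CPM in TS-t. All groups overlapped, and both TS medians were below both WT medians. Its averaged ratio in cortex was 0.722 (0.475 to 1.10, edgeR p = 0.125, adjusted p = 0.998), an interval that ends below 1.5, and exact permutation of TS-nt against WT-nt gave p = 0.0575 (79.2 ± 58.0 against 134 ± 55.8 CPM, n = 9 and 9), p = 0.0377 on the log2 scale and p = 0.106 without the libraries that stood apart. Without the cortex libraries that stood apart, its averaged ratio was 0.72 (edgeR p = 0.0346, adjusted p = 0.95). TS-nt over WT-t in cortex was then 0.597 (edgeR p = 0.02, adjusted p = 0.997). In hippocampus, TS-nt over WT-t was 1.17 (0.688 to 1.99, edgeR p = 0.559, adjusted p = 1).

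L1Md_F2_dup57795 in Fgd4 had cortex levels between 0 and 170.3 CPM in WT-nt, 0 and 114 CPM in WT-t, 24.5 and 163 CPM in TS-nt, and 0 and 164 CPM in TS-t. Its averaged ratio in cortex was 0.983 (0.592 to 1.63, edgeR p = 0.948, adjusted p = 0.998), which neither separates it from 1 nor from 1.5. In hippocampus TS-nt over WT-t was 0.817 (0.458 to 1.46, edgeR p = 0.488, adjusted p = 1), with an interval below 1.5.

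At an unadjusted edgeR p below 0.05 with TS higher, the members in the tissue that the listing did not use were counted beside the share of all tested elements. In cortex, of the 3 members listed only in hippocampus, 0 passed in TS-nt vs. WT-nt (background 1.18%), 1 in TS-t vs. WT-t (1.59%) and 1 in the averaged comparison (1.81%), both times L1Md_F_dup3732. In hippocampus, of the 5 members listed only in cortex, 2 could be tested, of which L1ME3Cz_dup944 passed in TS-nt vs. WT-nt (1.84%) and in the averaged comparison (2.03%) and L1MC1_dup5016 in TS-t vs. WT-t (1.91%), where permutation gave p = 0.128. In TS-nt vs. WT-t of their own tissue, 0 of the 2 tested members passed in cortex (1.18%) and 0 of 3 in hippocampus (1.23%). Without the cortex libraries that stood apart, L1Md_F_dup3732 also passed in TS-nt vs. WT-nt (edgeR p = 0.00592, adjusted p = 0.999) and L1ME3Cz_dup944 in TS-nt vs. WT-t (edgeR p = 0.0109, adjusted p = 0.997). With 24 such comparisons of 8 members by permutation, without a filter on counts, 5 had p below 0.05, 3 of them given above for L1ME3Cz_dup944 and L1Md_F_dup3732 in the unused tissue. The others were TS-nt vs. WT-t in cortex, in which treatment also differed. The permutation test was run on members only, so no share over all elements can be set beside this count, and its comparisons share libraries.

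For comparison, elements that the study lists as higher in the same TS-t comparisons but on other chromosomes were followed in the same unused libraries. Of the 16 listed in cortex, 10 could be tested, and their median log2 change in TS-nt vs. WT-t was 0.176, with 6 of 10 above 0. Of the 5 listed in hippocampus, all were tested, with a median of 0.213 and 4 of 5 above 0. The median over all tested elements was 0.0852 in cortex and -0.0277 in hippocampus. The members listed in a single tissue had values of 0.0238 and 0.588 in cortex, and a median of 0.0194 in hippocampus, and no difference between these lists was tested.

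The 3 Dscam elements were counted so rarely that most libraries held 0 to a few reads. In cortex L1M2_dup16808 had 92 reads over 22 TS libraries, 14 of them with a read, against 25 reads over 26 WT libraries, 9 with a read. Lx4A_dup9528 had 87 reads in TS, 18 libraries with a read, against 34 in WT, 6 with a read. L1MEc_dup4826 had 67 reads in TS, 17 libraries with a read, against 30 in WT, 10 with a read. TS-t libraries, on which the 3 were listed, held 69, 60 and 54 of these reads in the same order.

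In hippocampus, which the listing of these 3 did not use, the direction was not repeated. L1M2_dup16808 had 25 reads over 21 TS libraries and 34 over 25 WT libraries, Lx4A_dup9528 had 27 and 39, and L1MEc_dup4826 had 33 and 42. Ratios of mean TS over mean WT CPM were 0.823, 0.777 and 0.956 there and 3.93, 3.91 and 2.27 in cortex. Without the cortex libraries that stood apart, the cortex ratios of means were 4.37, 4.61 and 3.72. In the unused TS-nt vs. WT-t comparison in cortex, Lx4A_dup9528 had 14.7 ± 13.7 CPM in TS-nt against 3.98 ± 7.85 CPM in WT-t (n = 9 and 17, exact permutation test, p = 0.0161), and p = 0.15 by the same exact test without the libraries that stood apart. For L1M2_dup16808 the values were 12.3 ± 12.6 against 7.67 ± 12.6 CPM (exact permutation test, p = 0.381, n = 9 and 17). L1MEc_dup4826 had 7.56 ± 8.24 against 11.7 ± 25.5 CPM (exact permutation test, p = 0.801, n = 9 and 17). With so few reads, differences of this size could not be separated from the spread between libraries for L1M2_dup16808 and L1MEc_dup4826. Of the 3 other listed MMU17 elements, L1M5_dup15311 had 97 reads in TS and 9 in WT cortex and 14 and 12 in hippocampus, with ratios of mean CPM of 12.1 and 1.23. L1MD3_dup2285 had 144 and 52 reads in cortex and 60 and 37 in hippocampus, with ratios of 3.13 and 1.83. L1VL4_dup5634 had 374 and 227 reads in cortex and 201 and 98 in hippocampus, with ratios of 1.9 and 2.39, and its TS-t over WT-t ratio in hippocampus was 3.00 (1.33 to 6.77, edgeR p = 0.00855, adjusted p = 0.934).

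**Figure D3:**
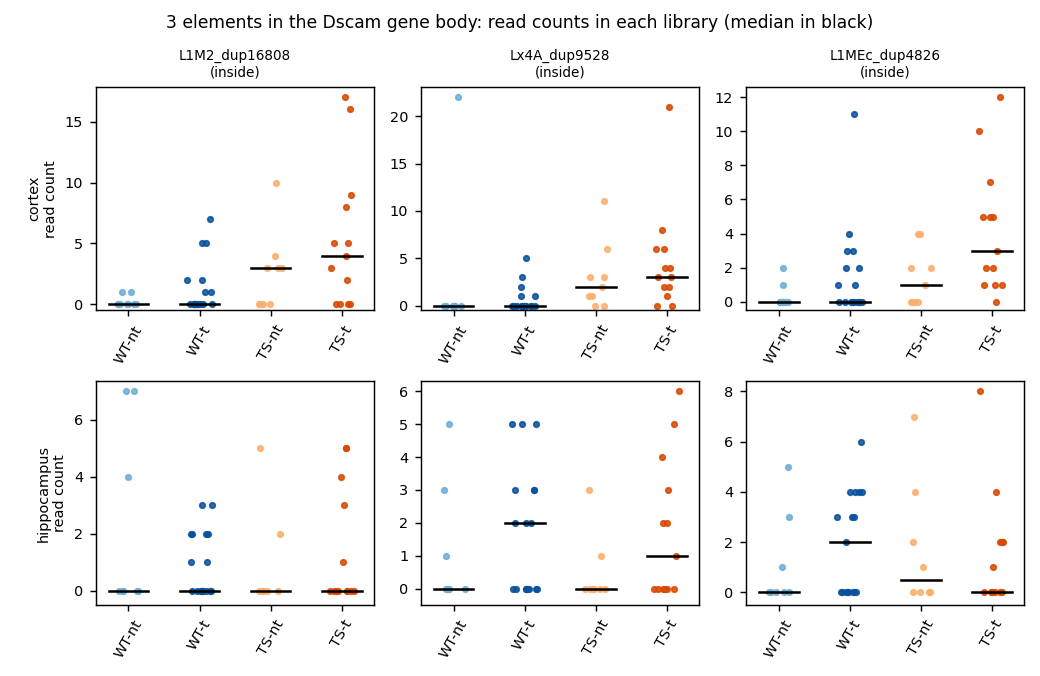
Read counts of the 3 Dscam elements in each cortex library (top) and hippocampus library (bottom) by group, with the median in black. Cortex TS-t libraries reached 17 reads of L1M2_dup16808, 21 of Lx4A_dup9528 and 12 of L1MEc_dup4826, and the highest Lx4A_dup9528 count, 22, was in a WT-nt library.

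Levels in the tissues were compared on a common normalisation of all 94 libraries. L1_Mm_dup4871 was higher in cortex, at 2120 ± 880 CPM (n = 48) against 1638 ± 486 CPM (n = 46) in hippocampus (two-sided permutation test, p = 0.00142), and was higher in cortex in 36 of 46 mice (paired permutation test, p = 8e-05). L1Md_F2_dup59906 was lower in cortex, at 1328 ± 482 CPM against 1513 ± 396 CPM (permutation test, p = 0.0448), and was higher in cortex in 13 of 46 mice (paired permutation test, p = 0.00122). The other 8 had permutation p-values between 0.0595 for L1Md_F2_dup57795 and 0.949 for L1MC1_dup5016. The p-values are not adjusted for the 10 elements compared.

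The TS over WT ratio itself was then compared between tissues, in 1 model of 7551 elements, of which 2 (0.0265%) were called, none of them a member. The model treated the cortex and hippocampus libraries of a mouse as independent, so its intervals and p-values ignore the pairing. The cortex minus hippocampus difference of the log2 ratio was -1.19 for L1Md_A_dup15761 (SE 0.422, interval -2.02 to -0.356, edgeR p = 0.00522, adjusted p = 1). For L1Md_F2_dup57795 it was -0.502 (-1.47 to 0.463). The 5 other tested members had differences between 0.0161 for L1Md_F2_dup59906 (-0.418 to 0.450) and 0.291 for L1ME3Cz_dup944 (-0.333 to 0.915), and all 5 intervals include 0. With the animal as a block in limma voom, 0 of 7551 elements were called. The differences of these 5 then ran from 0.0991 for L1Md_F_dup3732 to 0.911 for L1ME3Cz_dup944. L1Md_A_dup15761 was at -1.39 and L1Md_F2_dup57795 at -0.14 in that fit.

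Lamivudine left no called change in any tested member. Neither within TS nor within WT mice was any of the 7 tested members called in either tissue, nor in the interaction of genotype and treatment (background 0%). The 3 Dscam elements did not pass the filter, so their treatment change was not tested in this fit. Mean cortex levels in TS-t and TS-nt were 27.8 and 12.3 CPM for L1M2_dup16808, 26.8 and 7.56 for L1MEc_dup4826 and 27.7 and 14.7 for Lx4A_dup9528. The listing used these TS-t libraries. In hippocampus they were 9.37 and 4.87, 9.55 and 12.45, and 12.1 and 2.87 CPM in that order. With at least 10 counts in total, 0 of all 10 members were called within TS or WT mice. For the members listed in both tissues the TS-t over TS-nt ratio was 0.877 in cortex (0.641 to 1.20) and 1.01 in hippocampus (0.818 to 1.23) for L1_Mm_dup4871, and 0.857 (0.607 to 1.21) and 0.978 (0.812 to 1.18) for L1Md_F2_dup59906. In WT mice the ratio of WT-t over WT-nt was 1.07 (0.790 to 1.44) and 1.18 (0.969 to 1.44) for L1_Mm_dup4871, and 1.07 (0.771 to 1.5) and 1.15 (0.963 to 1.38) for L1Md_F2_dup59906. None of these 8 intervals extends above 1.5, and all include 1, with lower ends down to 0.607. The listing of both members used the TS-t, TS-nt and WT-nt libraries.

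The ratios farthest from 1 among the other tested members were above it, in hippocampus. L1Md_F_dup3732 had a TS-t over TS-nt ratio of 1.60 (1.13 to 2.27, edgeR p = 0.00953, adjusted p = 1), L1Md_F2_dup57795 of 1.69 (0.925 to 3.10) and L1Md_A_dup15761 of 1.60 (0.917 to 2.80). All were listed for high values in these same TS-t libraries, and in cortex, where they were not, the ratios were 1.06 (0.708 to 1.57), 0.778 (0.373 to 1.62) and 1.32 (0.715 to 2.44). L1Md_F2_dup57795 had a similar ratio in WT hippocampus, at 1.74 (0.957 to 3.18), where the listing also used the WT-nt libraries, as the lower group. L1MC1_dup5016 had ratios of 1.38 (0.896 to 2.13) in TS and 1.48 (0.975 to 2.26) in WT cortex, and 1.42 (0.847 to 2.38) in TS hippocampus. It was listed for high TS-t against low WT-nt values in these cortex libraries. L1ME3Cz_dup944 lay between 0.866 (0.625 to 1.20) in TS hippocampus and 1.13 (0.699 to 1.82) in WT cortex. With treated mice limited to labels beginning with 20, as all non-treated mice have, L1Md_F_dup3732 in TS hippocampus had a ratio of 1.4. The interaction ratios of the 7 members, the change with treatment in TS over that in WT, ran from 0.799 to 1.46 in cortex and from 0.848 to 1.42 in hippocampus, all with intervals that include 1. Without the cortex libraries that stood apart 0 members were called in these 3 cortex comparisons, and ratios ran from 0.854 for L1Md_F2_dup59906 to 1.36 for L1Md_A_dup15761 in TS, and from 0.909 for L1Md_F2_dup57795 to 1.32 for L1MC1_dup5016 in WT.

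**Figure D4:**
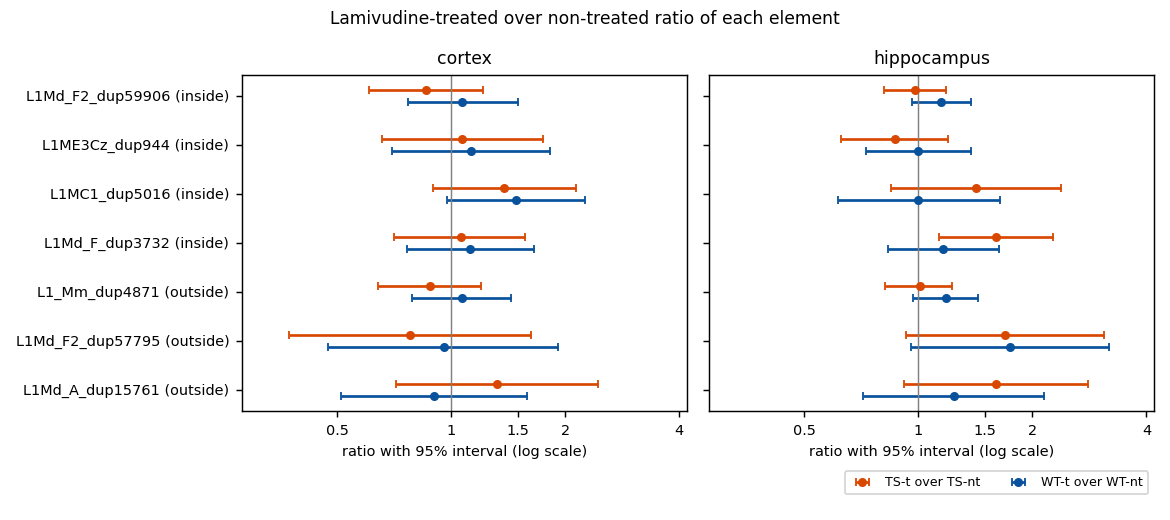
Ratio of treated over non-treated level (horizontal log axis) with its 95% interval in TS mice (orange) and WT mice (blue) for each tested element in cortex (left) and hippocampus (right), with a line at 1. Every interval but that of L1Md_F_dup3732 in TS hippocampus (1.13 to 2.27) includes 1.

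Whether a mouse that was high in cortex was also high in hippocampus was asked with the group means subtracted, over the 46 mice with both tissues. Of 3722 elements tested in both, 288 (7.74%) were called at an adjusted p below 0.1, and 0 of the 7 members were, with a median Pearson's r over all elements of 0.109. By Spearman's rho 248 elements (6.66%) were called, 2 of them members, L1MC1_dup5016 and L1Md_F2_dup59906. L1MC1_dup5016 had r = 0.373 (permutation p = 0.0137, adjusted over all elements 0.134) and Spearman's rho = 0.463 (permutation p = 0.00195, adjusted 0.0443), and r = 0.392 without the 2 mice farthest from the median in cortex. L1Md_F2_dup59906 had r = 0.328 (permutation p = 0.052, adjusted 0.283) and rho = 0.421 (permutation p = 0.0036, adjusted 0.0691), and r = 0.417 without the 2 farthest mice.

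Within mice whose label begins with 20 (n = 27) r was 0.457 for L1Md_F2_dup59906 and 0.179 for L1MC1_dup5016, and within label 19 (n = 12) it was 0.804 and 0.642. By rho neither was called within label 20 (adjusted permutation p = 0.247 and 0.632). Within label 18 only 6 mice could be used, with r of 0.425 and 0.619. L1Md_F_dup3732 had the highest r of the tested members within label 20, 0.509 (permutation p = 0.0127, adjusted 0.207). Its r was 0.0603 within label 19 and 0.512 within label 18. Within label 20 L1Md_F2_dup57795 had r = 0.342, and the remaining members lay between 0.064 and 0.289. Without the mice of the cortex libraries that stood apart (n = 38), L1Md_F2_dup59906 had r = 0.496 (permutation p = 0.00189, adjusted 0.0457). By rho it was not called there (adjusted permutation p = 0.185). L1_Mm_dup4871 had r = 0.171 over all mice (permutation p = 0.287, adjusted 0.633; rho = 0.241, permutation p = 0.12, adjusted 0.454), and 0.345 without the 2 farthest mice. Without the mice whose cortex libraries stood apart, L1_Mm_dup4871 had r = 0.406 (permutation p = 0.0074, adjusted 0.115). L1ME3Cz_dup944 (r = 0.209, rho = 0.213), L1Md_F_dup3732 (r = 0.267, rho = 0.248), L1Md_A_dup15761 (r = 0.183, rho = 0.183) and L1Md_F2_dup57795 (r = 0.0738, rho = -0.059) had adjusted permutation p-values between 0.416 and 0.907. Without the 2 farthest mice r was 0.226, 0.103, 0.178 and 0.149 in the same order.

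**Figure D5:**
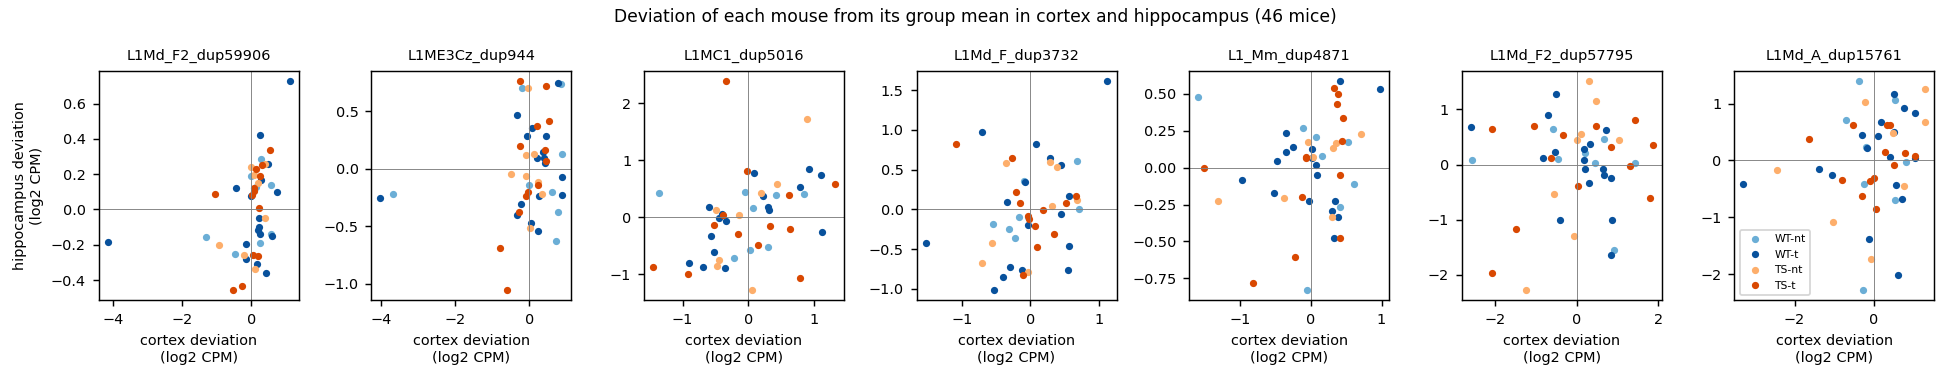
Deviation of each of 46 mice from its group mean in cortex (horizontal) and hippocampus (vertical), in log2 CPM, for the 7 tested elements, with points coloured by group. For L1Md_F2_dup59906, with r = 0.328, 1 mouse lies far to the left, at -4.16, and for L1ME3Cz_dup944, with r = 0.209, 2 mice do, at -4.02 and -3.67.

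The elements whose level across libraries was most like that of the members listed in both tissues were named by the Pearson correlation of log2 CPM, as a description over libraries that share their normalisation. Group means were not subtracted, so differences between groups enter r. For L1_Mm_dup4871 they were Lx2B2_dup4157 (r = 0.785), L1MC4_dup2661 (0.748) and Lx8_dup33202 (0.731) over 48 cortex libraries, and L1_Mus3_dup36077 (0.632), L1Md_F_dup1709 (0.615) and L1MC4_dup2661 (0.613) over 46 hippocampus libraries. L1MC4_dup2661 was the only element named in both tissues. For L1Md_F2_dup59906 they were L1M3_dup1481 (0.884), L1_Mus3_dup11864 (0.866) and L1Md_F2_dup47820 (0.866) in cortex, and Lx8_dup45029 (0.594), L1Md_F2_dup29898 (0.569) and L1_Mus3_dup33334 (0.530) in hippocampus. Of these, L1MC4_dup2661, L1Md_F_dup1709, L1Md_F2_dup29898 and L1Md_F2_dup47820 are themselves on the study's lists of elements higher in TS-t than in WT-nt. L1_Mm_dup4871 and L1Md_F2_dup59906 correlated with each other at r = 0.707 in cortex and 0.530 in hippocampus.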

How the data were processed

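Per the labels and the study's methods, the authors used Trimmomatic 0.38 for trimming and HISAT2 2.1.0 for alignment to GRCm38/mm10 with several alignments allowed per read, and Telescope to assign reads to single L1 copies. The deposited values are raw counts per element, as the authors' read assignment gave them. Here elements were filtered with filterByExpr (its defaults, a minimum count of 10 and a minimum total of 15), scaled by TMM with library sizes taken over tested elements, and tested per tissue with edgeR 4.0.16 (quasi-likelihood, robust, 4 groups) in R 4.3.3, with Benjamini-Hochberg adjustment over all tested elements and a threshold of 0.1. Intervals are 95%. Single members were also compared by permutation of mean CPM (exact, or 100000 draws where both groups had 10 or more), and correlations used log2 CPM with a prior count of 2. The steps were tested on simulated data. No libraries of a group were identical. Alternatives were DESeq2 1.42.0, limma 3.58.1 voom, other filters and scalings, and libraries left out. The rule for named elements was the 10 members, the 3 other listed MMU16 and MMU17 elements and the 3 most correlated elements. Members and lists were chosen with earlier results of these data known, and p-values measure spread between libraries.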

Additional observations from a re-analysis of the deposited data

Results flagged for a closer look

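Of 40 groups of 8 or 9 libraries (each member in WT-nt and TS-nt of each tissue), 5 held a library far from the others by Dixon's criterion, which flags about 1 in 20 groups by chance. In hippocampus TS-nt the highest library had 963 CPM of L1MC1_dup5016, with the next at 430 CPM, and the highest had 455 CPM of L1ME3Cz_dup944, with the next at 301 CPM. In hippocampus WT-nt the lowest library had 6.86 CPM of L1Md_F2_dup57795, with the next at 47.1 CPM. In cortex WT-nt the highest library had 12.2 CPM of L1MEc_dup4826, with the next at 5.49 CPM, and the highest had 81.2 CPM of Lx4A_dup9528, where all 8 others were at 0. The Lx4A_dup9528 library is 1 of the 8 cortex libraries that stood apart on the first principal component.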

How the results depend on the processing

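Counts of called members depended on the settings as follows. In the averaged genotype comparison in cortex, where 0 were called, 1 was called with DESeq2, 1 with its size factors, 3 with at least 10 counts in total, 1 with no filter and 3 without the libraries that stood apart, with 0 to 1 when single non-treated libraries were left out (1 without TS-nt mouse 27 or WT-nt mouse 28). In TS-nt vs. WT-nt in cortex 1 was called with at least 10 counts in total, in TS-t vs. WT-nt 2 with that filter and 2 with none, and in TS-t vs. WT-t 1 with that filter. In hippocampus, the 2 calls in TS-nt vs. WT-nt became 0 at a threshold of 0.05, 0 with no filter and 0 to 2 with single libraries left out (1 without WT-nt mouse 24 or 42 or TS-nt mouse 26 or 31, 0 without TS-nt mouse 25, 32 or 34 or WT-nt mouse 29, 30, 33, 43, 44 or 45). The 2 calls in TS-t vs. WT-nt became 3 with DESeq2 and 5 with at least 10 counts in total, where 16964 of 126067 elements were called. They became 0 with treated mice limited to label 20 and 1 to 2 with single libraries left out (1 without WT-nt mouse 42, 43 or 45). With only the groups compared 2 were called, L1Md_F_dup3732 and L1Md_F2_dup59906, a different pair. The 0 calls in TS-t vs. WT-t became 3 with DESeq2, 2 with its size factors, 4 with at least 10 counts in total and 2 with only the groups compared, and the 0 in TS-nt vs. WT-t became 1 with DESeq2. With at least 10 counts in total, 13378 of 126067 elements were called in TS-t vs. WT-t. The 2 calls of the averaged comparison became 0 with label 20. Of the 24 permutation comparisons, 5 with p below 0.05 became 3 with label 20: L1ME3Cz_dup944 and L1Md_F_dup3732 in TS-nt vs. WT-nt, which use no treated mice, and Lx4A_dup9528 in hippocampus TS-t vs. WT-t, which was lower in TS (ratio 0.276, n = 8 and 3, exact permutation test, p = 0.0424). Agreement between tissues, with 0 called by Pearson's r and 2 by Spearman's rho, gave 1 called by r on the CPM scale, 1 without TMM and 1 without the mice of the libraries that stood apart, the last being added after the data were seen, as was a library size over all L1 counts. By rho, neither L1MC1_dup5016 nor L1Md_F2_dup59906 was called within label 20 (adjusted permutation p = 0.632 and 0.247). Without the mice of the libraries that stood apart neither was called either (adjusted permutation p = 0.107 and 0.185). On the CPM scale L1Md_F2_dup59906 was called by rho and L1MC1_dup5016 was not (adjusted permutation p = 0.0505 and 0.139). Both were called by rho without TMM. The cause of these changes was not tested. With the animal as replicate block, the pairing being that of the animal labels, 2 of 10 members differed between tissues, as without it, and 0 differed in the genotype ratio. With single non-treated libraries left out (treated ones were not, so not the TS-t library at 2088 CPM of L1MC1_dup5016), averaged ratios lay in cortex between 1.43 and 1.53 for L1Md_F2_dup59906, 1.56 and 1.69 for L1_Mm_dup4871, 1.55 and 1.69 for L1ME3Cz_dup944, 1.44 and 1.55 for L1Md_F_dup3732, 1.38 and 1.52 for L1MC1_dup5016, 0.908 and 1.08 for L1Md_F2_dup57795 and 0.673 and 0.763 for L1Md_A_dup15761, and in hippocampus, in that order, 1.46 and 1.5, 1.46 and 1.55, 1.3 and 1.42, 1.34 and 1.44, 1.13 and 1.37, 1.27 and 1.5, and 1.52 and 1.83. Without the libraries that stood apart, cortex ratios were 1.36 for L1Md_F2_dup59906, 1.57 for L1_Mm_dup4871, 1.54 for L1ME3Cz_dup944, 1.41 for L1Md_F_dup3732, 1.25 for L1MC1_dup5016, 0.937 for L1Md_F2_dup57795 and 0.720 for L1Md_A_dup15761. With treated mice limited to label 20 they were 1.59, 1.69, 1.35, 1.5, 1.34, 0.877 and 0.846 in cortex in that order. Over all elements, the averaged comparison called 10 with DESeq2 and 14 without the libraries that stood apart in cortex, where edgeR called 0 of 5416. In hippocampus, where it called 4, DESeq2 called 20. With at least 10 counts in total, the averaged comparison called 15957 of 186107 elements in cortex and 15466 of 126067 in hippocampus, so members called under that filter stand among many. With few reads per library, the depth limits L1M2_dup16808, L1MEc_dup4826 and Lx4A_dup9528 most.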
